A study of Mus musculus with 15 samples.

Results

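DNA replication and repair genes were followed in cells of the embryonic mouse medial cortex sorted for an early sign of cell death. The 50 genes are a list of 36 replication factors and 14 repair and checkpoint genes, taken by exact symbol from a count table of 55367 gene symbols, and all 50 symbols were found there. The cells came from C57BL/6 mice at stage E11.5. Annexin V marks cells that expose phosphatidylserine at their surface, and propidium iodide (PI) stains cells with a leaky membrane. The AnnexinV-positive group bound annexin V but excluded PI (6 libraries), and the double-negative group carried neither stain (6 libraries). No genotype, drug or transgene is named for either group. The libraries were bulk RNA-seq made by a modified smart-seq2 protocol, which amplifies full-length cDNA from little RNA. The labels do not tell whether the libraries within a group stem from different embryos or sorts, so a p-value here reflects how the libraries scatter, some of which can be technical. Another 3 samples without a sort label were not analysed here.

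Replication starts at origins that were licensed before S phase, when ORC, Cdc6 and Cdt1 load the ring-shaped MCM helicase onto DNA. Cdc45 and GINS then switch the helicase on, polymerases copy both strands with the help of the PCNA clamp and its RFC loader, RPA coats the exposed single strands, and ribonucleotide reductase and related enzymes supply nucleotides. Repair and checkpoint proteins sense stalled forks and broken DNA: the kinases Atr and Atm signal to Chek1 and Chek2, while Brca1, Brca2, Trp53bp1 and Parp1 act at breaks. Many replication genes are transcribed shortly before S phase by E2F factors. At this age the cortex is rich in dividing progenitors, which replicate their DNA in every cycle, and in young neurons, which have left the cycle.

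The promoters of the MCM genes are shown because the E2F letters given below were found in replication genes and in none of the repair genes searched. In RefSeq windows of 300 bases (250 before and 50 after the start site, build GRCm38.p6), 43 of the 50 genes had an entry. Those not matched were Mcm4, Gins1, Gins2, Ccne2, Pole, Rfc2 and Fancd2. The E2F letters TTTCGCGC and TTTGGCGC, searched on both strands with overlapping matches counted, stood in the windows of 9 of 30 replication genes (30.0%) and 0 of 13 repair genes, against 0.929% of all 27025 genes in the table. The genes with a match were Mcm3, Mcm5, Mcm6, Mcm7, Cdt1, Uhrf1, Pola1, Lig1 and Rfc3. Other E2F-type letters were not searched, so the contrast of the classes holds for these letters alone. The related letters TTTCCCGC, on either strand, stand for example in the windows of the repair gene Msh6 and the replication gene Mcm3. CCAAT boxes (CCAAT on either strand) were as frequent in one class as in the other, at 63.3% of the replication genes and 61.5% of the repair genes, against 41.1% of all genes. In the windows below, capitals mark the E2F letters. Mcm3 lies at chr1:20820263-20820562 (minus strand), Mcm5 at chr8:75109259-75109558 (plus strand), Mcm6 at chr1:128359656-128359955 (minus strand) and Trp53bp1, shown as a repair gene without these letters, at chr2:121271358-121271657 (minus strand).
Mcm3: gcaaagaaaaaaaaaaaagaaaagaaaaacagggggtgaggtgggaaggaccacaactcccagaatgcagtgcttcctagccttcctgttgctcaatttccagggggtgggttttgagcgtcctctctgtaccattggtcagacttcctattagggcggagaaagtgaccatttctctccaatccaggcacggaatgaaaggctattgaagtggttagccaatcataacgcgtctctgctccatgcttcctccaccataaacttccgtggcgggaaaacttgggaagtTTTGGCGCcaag
Mcm5: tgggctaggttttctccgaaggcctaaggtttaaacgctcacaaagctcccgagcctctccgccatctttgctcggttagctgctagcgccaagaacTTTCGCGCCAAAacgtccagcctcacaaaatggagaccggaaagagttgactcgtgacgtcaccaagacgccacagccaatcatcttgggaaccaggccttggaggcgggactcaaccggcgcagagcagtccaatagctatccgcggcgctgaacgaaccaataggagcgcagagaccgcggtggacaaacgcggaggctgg
Mcm6: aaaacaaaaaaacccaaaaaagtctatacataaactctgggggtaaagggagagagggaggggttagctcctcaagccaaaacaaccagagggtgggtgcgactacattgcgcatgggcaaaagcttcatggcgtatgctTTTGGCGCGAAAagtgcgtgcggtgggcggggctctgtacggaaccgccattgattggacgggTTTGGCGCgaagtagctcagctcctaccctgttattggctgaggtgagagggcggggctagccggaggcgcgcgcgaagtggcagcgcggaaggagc
Trp53bp1: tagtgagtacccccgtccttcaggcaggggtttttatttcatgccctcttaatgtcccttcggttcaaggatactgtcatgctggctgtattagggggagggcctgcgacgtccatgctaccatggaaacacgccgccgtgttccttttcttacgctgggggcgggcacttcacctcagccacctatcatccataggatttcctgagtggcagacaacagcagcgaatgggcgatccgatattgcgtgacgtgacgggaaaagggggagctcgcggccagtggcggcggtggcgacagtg
In Mcm3 the letters begin 38 bases after the start site. In Mcm5 and Mcm6 a match on each strand overlaps in a palindrome-like run, beginning 153 bases before the start in Mcm5 and 110 before it in Mcm6, and Mcm6 holds a further match 47 bases before the start. A match describes the letters of the window, and binding of an E2F factor was not measured.

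Total counts ran from 190694 to 444412 in AnnexinV-positive libraries and from 88193 to 329813 in double-negative libraries. Levels are given as counts per 1000000 counts of the genes that passed the filter on low counts (CPM), scaled with TMM factors, on which a single count was worth 2.41 CPM in AnnexinV-positive library 5, the deepest, and 15.4 CPM in double-negative library 3, the shallowest. Between 45 and 49 of the 50 genes had a count in each AnnexinV-positive library, against 24 to 45 in each double-negative library, and a count of 0 in double-negative library 3 still allows a level of up to 46.1 CPM (3 counts, counting error only). Haemoglobin genes held 12, 30.8 and 12.3% of the counts in double-negative libraries 1, 2 and 3. In no other library did they hold more than 0.00964%. Cortical progenitor markers were present in both groups: Lhx2 was at 86.1 to 183 CPM in AnnexinV-positive libraries and 30.7 to 142 CPM in double-negative libraries, and Pax6 at 59.9 to 254 CPM in AnnexinV-positive libraries and 15.4 to 248 CPM in double-negative libraries.

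No member passed the test between the sort groups, in either class. The filter on low counts kept 3800 genes for the test, among them 30 members (23 of 36 replication factors and 7 of 14 repair and checkpoint genes). At an adjusted p under 0.05 in edgeR, 0 members were higher in AnnexinV-positive libraries, where 0.395% of all tested genes were, and 0 were lower, where 1.47% were. At an unadjusted p under 0.05 in edgeR, 3 replication factors were higher (Mcm3, Mcm2 and Dut) beside 7.97% of all tested genes, and 1 repair gene was lower (Trp53bp1) beside 7.68%. DESeq2 on the same counts called 1 member as lower, Trp53bp1, beside 3.34% of all tested genes, and 0 as higher beside 1.95%. On the second deposited table limma called 0 members in either direction, beside 0.447% of all tested genes higher and 0.395% lower.

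Most replication factors had higher mean levels in AnnexinV-positive libraries, and the repair and checkpoint genes were more mixed; these counts and medians are a description of the members, with no test. Of the tested replication factors, 20 had a positive log2 fold change (AnnexinV-positive over double-negative) and 3 a negative one, with a median of 0.64. Of the tested repair and checkpoint genes, 4 were positive and 3 negative, with a median of 0.14. Over all tested genes 53.3% were positive and the median was 0.06. Without a filter, so that every member has a value, the medians were 0.84 over the 36 replication factors (33 positive) and 0.44 over the 14 repair and checkpoint genes (11 positive), against 0.22 for the genes of the main test in that fit. Without double-negative libraries 1 to 3, the ones with haemoglobin, the medians of the tested members came to 0.23 for replication and 0.28 for repair, so the order of the classes turned round, and 14 of 23 tested replication factors were positive, 0 of them at an unadjusted p under 0.05 in edgeR.

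**Figure D1:**
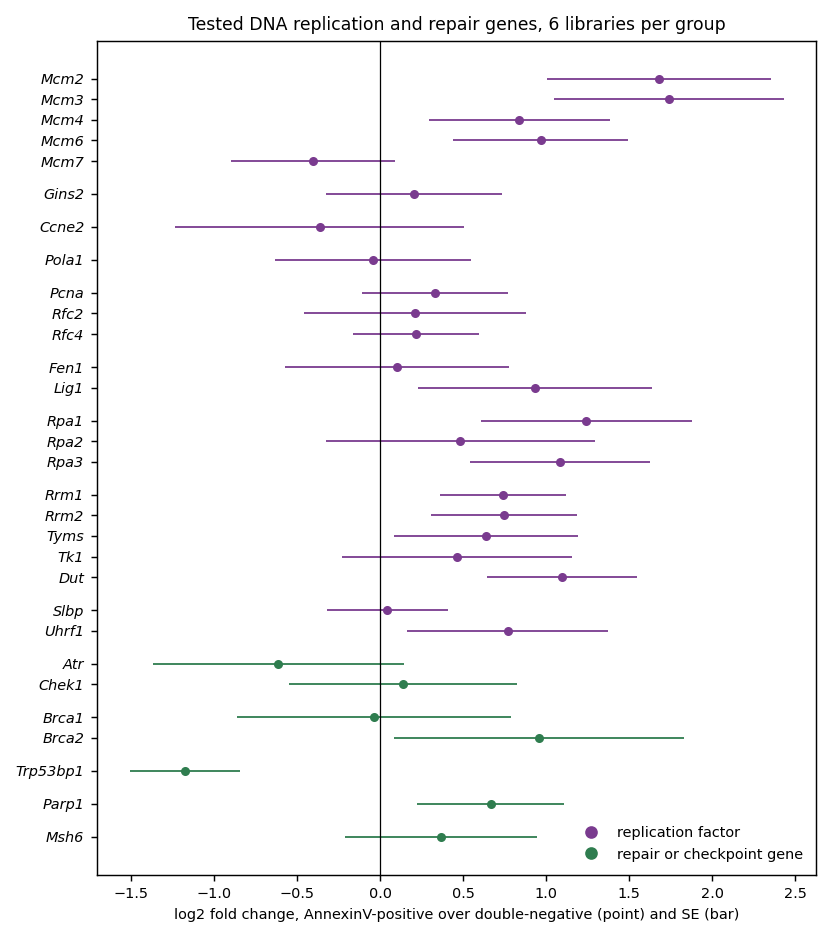
Log2 fold change of each tested member (AnnexinV-positive over double-negative, horizontal axis; point) with its standard error (bar), 6 libraries per group, grouped by role. Mcm3 at 1.74 and Mcm2 at 1.68 lie farthest to the right and Trp53bp1 at -1.18 farthest to the left.

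Summed over each class, the replication factors were lower in some double-negative libraries, while the repair and checkpoint sums were alike in both groups. The 36 replication factors together reached 2675, 4013 and 4383 CPM (lowest, median and highest) in AnnexinV-positive libraries, against 937, 2365 and 4167 CPM in double-negative libraries. Double-negative libraries 1, 2 and 3 (2050, 1317 and 937 CPM; haemoglobin as above) lay below every AnnexinV-positive library, while double-negative libraries 4 and 6 (4167 and 3789.8 CPM) lay among them and library 5 (2679 CPM) at their lower edge. The 14 repair and checkpoint genes summed to 480.0, 705 and 864 CPM in AnnexinV-positive libraries and 461, 657 and 882 CPM in double-negative libraries, so these ranges nearly coincided. Trp53bp1 alone held a mean of 244 of 680 CPM in double-negative libraries and 107 of 704 CPM in AnnexinV-positive libraries. Of the 14 genes, 11 had the higher mean in AnnexinV-positive libraries and 3 the lower, so the near match is one of sums. Repair and checkpoint genes made up 14.2 to 21.3% of all member counts in AnnexinV-positive libraries and 15.5 to 40.1% in double-negative libraries, with the 3 highest shares (23.1, 40.1 and 33.0%) in double-negative libraries 1, 2 and 3. In these 3 libraries Trp53bp1 held 287, 190 and 230 CPM of repair sums of 617, 882 and 461 CPM. In bulk RNA, fewer cells of a type and less RNA of a gene per cell cannot be told apart.

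Neuron and mitosis markers moved with the sort groups, while markers of other cell types were uneven between libraries. The 13 neuron markers summed to 302 to 947 CPM in AnnexinV-positive libraries and 1753 to 4048 CPM in double-negative libraries, with no overlap. Of 8 tested, 5 fell at an adjusted p under 0.05 in edgeR (Dcx, Stmn2, Ina, Map2 and Elavl3), 3 did without double-negative libraries 3 and 5 and likewise without numbers 1 to 3, and 2 in the second deposited table with limma. The 20 mitosis markers summed to 2665 to 4357 CPM in AnnexinV-positive libraries and 178 to 2096 CPM in double-negative libraries, again with no overlap. Of 15 tested, 3 rose at an adjusted p under 0.05 in edgeR (Mki67, Cenpf and Knl1). Without double-negative libraries 3 and 5 this count was 0 (6 at an unadjusted p under 0.05), it was 6 without numbers 1 to 3, and in the second deposited table it was 0 with limma (12 at an unadjusted p under 0.05). All 8 endothelial markers were at 0 in every double-negative library and summed to 0 to 437 CPM in AnnexinV-positive libraries. The highest sums were in AnnexinV-positive libraries 5 and 6 (241 and 437 CPM), and libraries 2 and 4 were at 0. The 8 mesenchyme markers summed to 0 to 849 CPM in AnnexinV-positive libraries and 0 to 38.1 CPM in double-negative libraries (Dcn at 0 throughout), and the 8 macrophage markers to 0 to 574 CPM in AnnexinV-positive libraries and 0 to 91.7 CPM in double-negative libraries (C1qa at 0 throughout). The macrophage maximum was that of AnnexinV-positive library 1, and no other library of its group exceeded 24.1 CPM. The 10 blood markers summed to 0 to 93.1 CPM in AnnexinV-positive libraries, and in double-negative libraries to 153560 to 539890 CPM in numbers 1 to 3 and 0 to 8.09 CPM in numbers 4 to 6. Haemoglobin genes did not pass the filter and lie outside the CPM denominator, so these sums exceed the markers' share of all counts. The part of these cell types in the members' values was not tested.

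**Figure D2:**
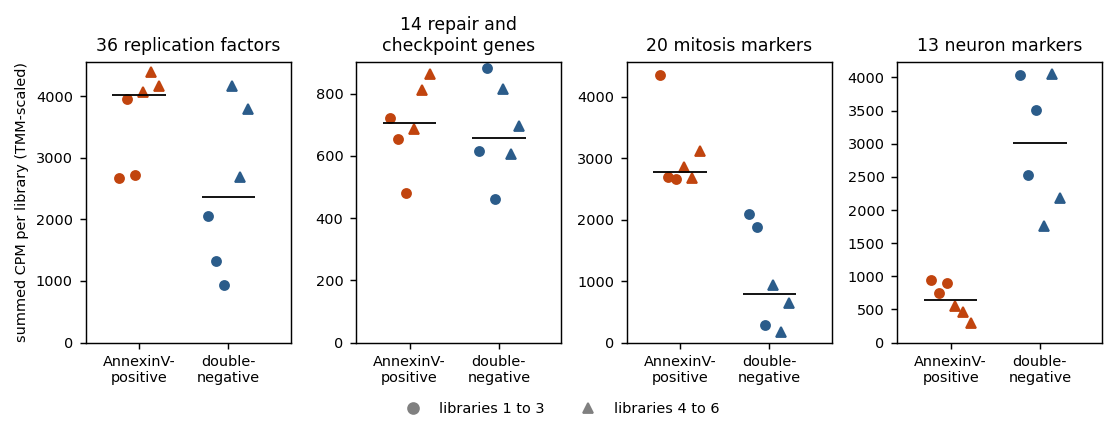
Summed TMM-scaled CPM per library for the 36 replication factors, the 14 repair and checkpoint genes, 20 mitosis markers and 13 neuron markers, with AnnexinV-positive libraries left and double-negative libraries right; circles are libraries 1 to 3, triangles 4 to 6 and bars medians. The mitosis and neuron sums do not overlap between the groups, whereas the replication sums of double-negative libraries 4 (4167 CPM) and 6 (3789.8 CPM) stand among the AnnexinV-positive ones.

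Among the tested members, the 2 largest fold changes were those of Mcm3 and Mcm2, which act in origin licensing. Mcm3, a subunit of the replicative helicase, was at 57.3, 97.2 and 207 CPM (lowest, median and highest) in AnnexinV-positive libraries and at 0, 24.0 and 80.9 CPM in double-negative libraries. All 6 AnnexinV-positive libraries lay above the double-negative median, but the ranges overlapped, and Mcm3 had no count in double-negative libraries 2 and 3. Its log2 fold change was 1.74 (SE 0.69, adjusted p = 0.199 in edgeR). Mcm2, another subunit of the same ring, was at 40.2, 97.0 and 108 CPM in AnnexinV-positive libraries and at 0, 16.3 and 85.2 CPM in double-negative libraries. Double-negative library 4 alone of its group reached the AnnexinV-positive range, and the log2 fold change was 1.68 (SE 0.67, adjusted p = 0.204 in edgeR). Mcm6 was at 103, 140.3 and 178 CPM in AnnexinV-positive libraries and at 0, 67.6 and 128 CPM in double-negative libraries. Here double-negative libraries 4 and 5 reached into the AnnexinV-positive range, and the log2 fold change was 0.97 (SE 0.53, adjusted p = 0.388 in edgeR).

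The other MCM subunits, which complete the helicase ring, had values of both signs. Mcm4 had a log2 fold change of 0.84 (SE 0.55) and Mcm7 one of -0.40 (SE 0.49), and neither passed (adjusted p = 0.485 and 0.743 in edgeR). The exons of Mcm7 overlap those of Cops6 and Ap4m1 on the other strand, and the strand setting of the counting is not given in the sources used here. Mcm5 did not pass the filter and was at 11.48, 42.0 and 186 CPM in AnnexinV-positive libraries and at 0, 17.2 and 99.4 CPM in double-negative libraries. Summed over Mcm2 to Mcm7, levels were 339, 760.5 and 997 CPM in AnnexinV-positive libraries and 76.8, 324 and 791 CPM in double-negative libraries, with double-negative libraries 1 to 3 lowest of all 12. The loading factor Cdt1, also below the filter, was at 5.74, 38.1 and 77.2 CPM in AnnexinV-positive libraries and at 0, 36.5 and 86.3 CPM in double-negative libraries, over much the same range. Cdc6, the ATPase that works with Cdt1, had 36 counts in all AnnexinV-positive libraries and 11 in all double-negative libraries.

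**Figure D3:**
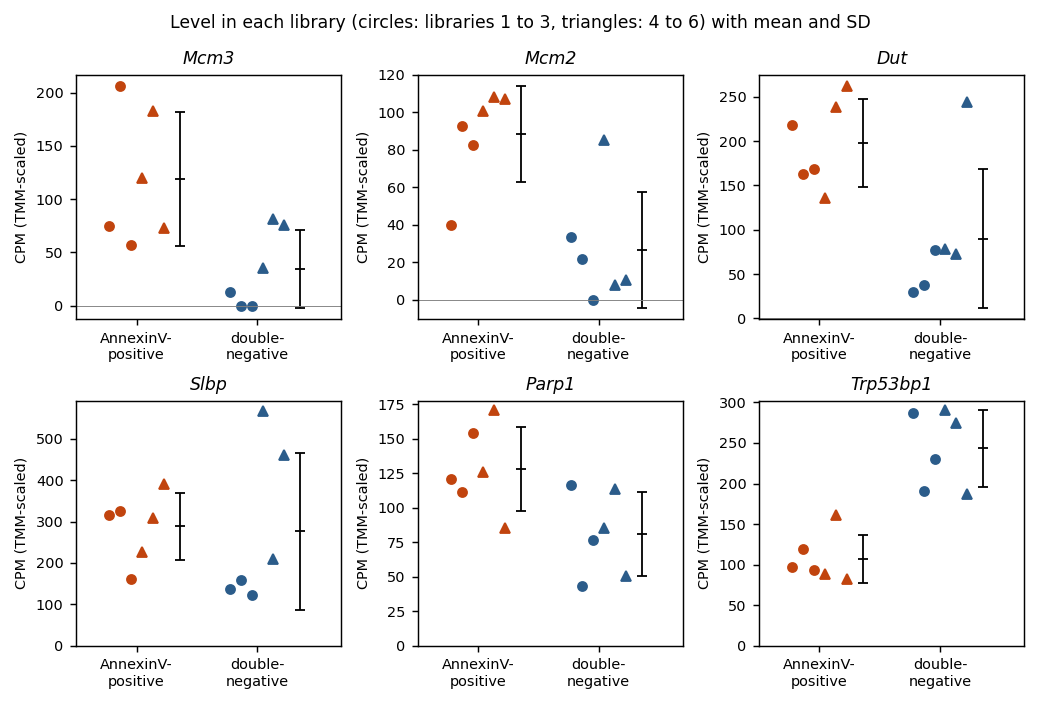
TMM-scaled CPM of Mcm3, Mcm2, Dut, Slbp, Parp1 and Trp53bp1 in each library, with AnnexinV-positive libraries left and double-negative libraries right; circles are libraries 1 to 3 and triangles 4 to 6, and the bar beside each group is its mean and SD (n = 6). The groups overlap for each gene except Trp53bp1, whose AnnexinV-positive libraries (82.5 to 162 CPM) all lie below the double-negative ones (187 to 291 CPM).

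Helicase activation was covered thinly. Gins2, a subunit of the GINS complex, was the tested member of this role, with a log2 fold change of 0.20 (SE 0.53, adjusted p = 0.885 in edgeR). Gins1, its partner, did not pass the filter and was at 9.16, 58.4 and 111 CPM in AnnexinV-positive libraries and at 0, 11.3 and 29.2 CPM in double-negative libraries, and 4 of the 6 AnnexinV-positive libraries lay above every double-negative library. Also below the filter, Mcm10, which helps to open the origin, was at 0, 22.2 and 46.5 CPM in AnnexinV-positive libraries and at 0, 16.9 and 59.9 CPM in double-negative libraries, and Cdc45 had 15 counts in the AnnexinV-positive group and 2 in the double-negative group. Of the E-type cyclins, which drive entry into S phase with Cdk2, Ccne2 had a log2 fold change of -0.36 (SE 0.87, adjusted p = 0.874 in edgeR). Its double-negative levels were spread over 0 to 305 CPM, around AnnexinV-positive levels of 25.1 to 126 CPM. Ccne1 was below the filter, at 0, 13.5 and 25.1 CPM in AnnexinV-positive libraries and 0, 0 and 25.0 CPM in double-negative libraries.

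The tested genes of polymerases, clamp and clamp loader had values near 0, with errors larger than the value. Pola1, the catalytic subunit of the polymerase that primes each fragment, had a log2 fold change of -0.04 (SE 0.59, adjusted p = 0.984 in edgeR). Its primase partner Prim1, below the filter, was at 5.74, 34.3 and 121 CPM in AnnexinV-positive libraries and at 0, 39.7 and 106 CPM in double-negative libraries. Pole, the leading-strand polymerase, was at 3.58, 33.5 and 58.0 CPM in AnnexinV-positive libraries and at 0, 4.05 and 71.0 CPM in double-negative libraries, and its lagging-strand counterpart Pold1 had 63 counts in the AnnexinV-positive group and 11 in the double-negative group. Pcna, the clamp that holds polymerases on DNA, ranged over 161 to 306 CPM in AnnexinV-positive libraries and 15.4 to 405 CPM in double-negative libraries, with a log2 fold change of 0.33 (SE 0.44, adjusted p = 0.762 in edgeR). Of the clamp loader, Rfc2 and Rfc4 both had a log2 fold change of 0.21 (SE 0.67 for Rfc2 and 0.38 for Rfc4; adjusted p = 0.912 and 0.821 in edgeR). Rfc1, its large subunit, was at 17.2, 76.7 and 147 CPM in AnnexinV-positive libraries and at 5.44, 26.1 and 97.1 CPM in double-negative libraries. Rfc3 lay the other way, at 3.05, 25.8 and 50.4 CPM in AnnexinV-positive libraries and at 7.10, 33.9 and 144 CPM in double-negative libraries, and Rfc5 had 85 counts in the AnnexinV-positive group and 13 in the double-negative group; these 3 were below the filter.

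The 3 subunits of RPA, the protein that protects single-stranded DNA at forks, all had positive values. Rpa1 was at 63.1, 94.7 and 159 CPM in AnnexinV-positive libraries and at 0, 39.4 and 121 CPM in double-negative libraries. All 6 AnnexinV-positive libraries were above the double-negative median, double-negative library 5 alone of its group lay inside the AnnexinV-positive range, and the log2 fold change was 1.24 (SE 0.64, adjusted p = 0.348 in edgeR). Rpa3 was at 71.6, 99.4 and 229 CPM in AnnexinV-positive libraries and at 10.9, 47.3 and 121 CPM in double-negative libraries. Double-negative library 4 was the one of its group that entered the AnnexinV-positive range, with a log2 fold change of 1.08 (SE 0.54, adjusted p = 0.336 in edgeR). Rpa2 was uneven within each group, over 5.17 to 165 CPM in AnnexinV-positive libraries and 0 to 133 CPM in double-negative libraries, with a log2 fold change of 0.48 (SE 0.81, adjusted p = 0.812 in edgeR). The enzymes that finish lagging-strand fragments were Lig1, the ligase, at 0.93 (SE 0.71, adjusted p = 0.575 in edgeR) and Fen1, the flap nuclease, at 0.10 (SE 0.68, adjusted p = 0.964 in edgeR).

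All 5 nucleotide supply genes passed the filter, and each had a positive log2 fold change. Dut, which destroys dUTP and so keeps uracil out of DNA, was at 136, 193 and 263 CPM in AnnexinV-positive libraries and at 29.2, 74.8 and 245 CPM in double-negative libraries. All double-negative libraries except number 6 lay below every AnnexinV-positive library, and the log2 fold change was 1.10 (SE 0.45, adjusted p = 0.218 in edgeR). When double-negative library 6 was left out, it was 1.78 and passed (adjusted p = 0.0280 in edgeR). Rrm1, the large subunit of ribonucleotide reductase, was at 154, 289 and 324 CPM in AnnexinV-positive libraries and at 15.4, 154 and 263 CPM in double-negative libraries. Its regulated partner Rrm2 was at 149, 231 and 299 CPM in AnnexinV-positive libraries and at 0, 144 and 251 CPM in double-negative libraries. Both overlapped between the groups and had nearly the same log2 fold change, 0.74 for Rrm1 (SE 0.38, adjusted p = 0.349 in edgeR) and 0.75 for Rrm2 (SE 0.44, adjusted p = 0.436 in edgeR). Tyms, which makes thymidylate, had 0.64 (SE 0.55) and Tk1, which salvages thymidine, 0.46 (SE 0.69), neither past the threshold (adjusted p = 0.627 and 0.788 in edgeR).

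Slbp and Uhrf1 serve the chromatin that is rebuilt behind the fork. Slbp, which binds histone mRNA, was at 161, 312 and 391 CPM in AnnexinV-positive libraries and at 123, 184 and 568 CPM in double-negative libraries. The 2 highest of all 12 libraries were double-negative libraries 4 and 6, and the log2 fold change was 0.04 (SE 0.36, adjusted p = 0.973 in edgeR). Uhrf1, which guides DNA methylation to new strands, had 0.77 (SE 0.60, adjusted p = 0.592 in edgeR), with 64.6 to 297 CPM in AnnexinV-positive libraries and 4.17 to 209 CPM in double-negative libraries. Its sign depended on double-negative libraries 1 to 3, at 4.17, 5.44 and 61.4 CPM: without them the value was -0.06.

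Per kilobase of exon, replication factors were the more abundant class. In AnnexinV-positive libraries the highest medians were 110.2 CPM per kb for Pcna, 109.7 for Rfc4, 87.5 for Rpa3, 83.4 for Rrm2 and 80.2 for Dut, and in double-negative libraries 87.6 for Rfc4, 84.2 for Pcna and 51.9 for Rrm2. Among repair and checkpoint genes the highest was Parp1, at 23.3 CPM per kb in AnnexinV-positive libraries; in double-negative libraries it was Trp53bp1, at 17.8 CPM per kb, just above Msh6 at 16.0 and Parp1 at 15.3. Rfc4 shares exon bases with the abundant gene Eif4a2 on the other strand, and exon length here is the union of all annotated transcripts, which lowers the per-length level of genes with long minor isoforms.

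**Figure D4:**
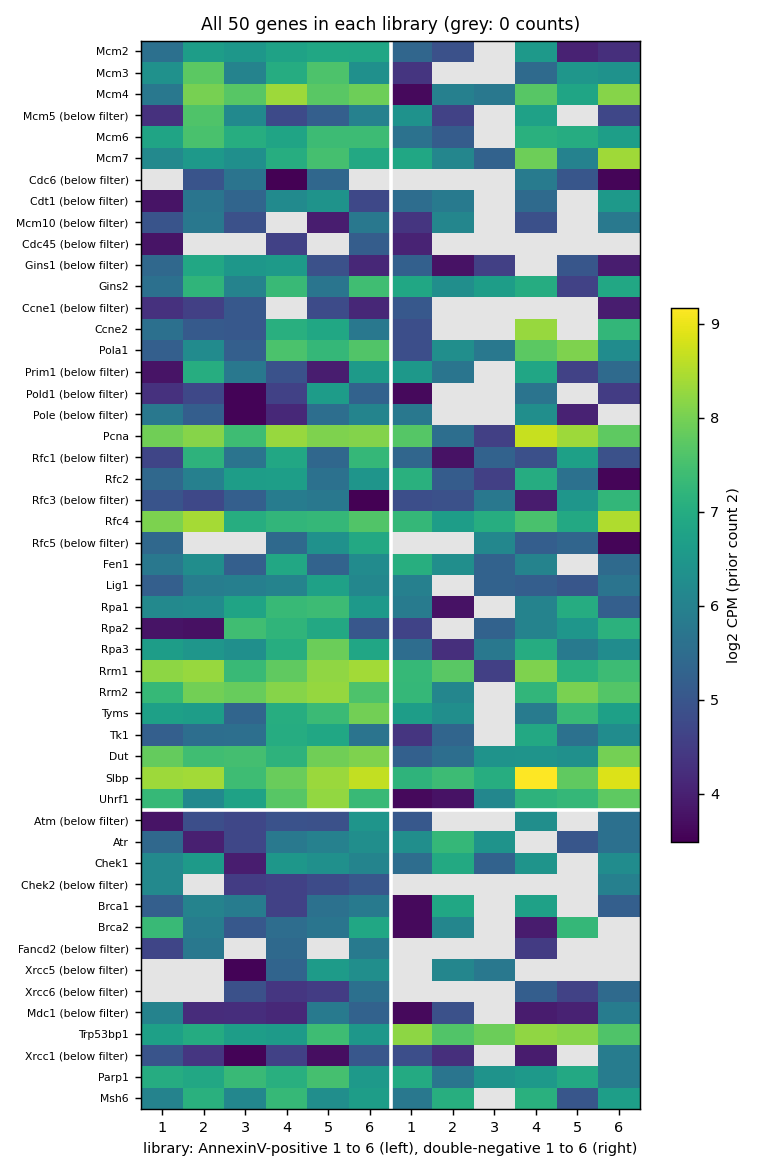
Log2 CPM (colour scale, prior count 2) of all 50 genes in each library, with AnnexinV-positive libraries 1 to 6 left and double-negative libraries 1 to 6 right; replication factors stand above the horizontal line and repair and checkpoint genes below it, and grey marks a count of 0. Grey cells gather in double-negative library 3, where 24 of the 50 genes had a count.

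Trp53bp1 stood apart from the other repair and checkpoint genes. It encodes 53BP1, a chromatin protein that gathers at double-strand breaks and favours their joining end to end. It was at 82.5, 95.4 and 162 CPM in AnnexinV-positive libraries and at 187, 253 and 291 CPM in double-negative libraries. Every AnnexinV-positive library lay below every double-negative library, which no other member showed: among all tested genes, 1.24% were without overlap in this direction and 1.34% in the other, where there were 0 members. Its mean was 107 ± 29.5 CPM (SD, n = 6) in AnnexinV-positive libraries and 244 ± 47.7 CPM (SD, n = 6) in double-negative libraries, and the log2 fold change was -1.18 (SE 0.33, adjusted p = 0.0648 in edgeR). DESeq2 gave -1.21 and passed (adjusted p = 0.00745 in DESeq2).

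The value of Trp53bp1 was steady across libraries but not across the 2 deposited tables. It was -1.18 in libraries 1 to 3 and -1.20 in libraries 4 to 6, and between -1.33 and -1.11 with any 1 library left out. In the second deposited table, named TPM, Trp53bp1 stood at 18.6, 65.2 and 100.3 units in AnnexinV-positive libraries and 32.1, 71.6 and 109 units in double-negative libraries, which overlapped, and the log2 fold change was -0.17 (adjusted p = 0.882 in limma). The median of all tested genes in that table was 0.42. Exons of Trp53bp1 (chr2:121193281-121271407, minus strand, GRCm38) overlap those of Tubgcp4 on the other strand, which had a log2 fold change of -0.31 (adjusted p = 0.840 in edgeR), and some of the deposited counts of Trp53bp1 were fractional. Which of these bears on the difference between the tables was not tested.

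The other break repair genes had positive or near-zero log2 fold changes. Parp1, which senses single-strand breaks, was at 85.5, 123 and 171 CPM in AnnexinV-positive libraries and at 43.5, 81.0 and 117 CPM in double-negative libraries. Each AnnexinV-positive library exceeded the double-negative median, with some overlap, and the log2 fold change was 0.67 (SE 0.44, adjusted p = 0.496 in edgeR). Brca2, which acts in homologous recombination, was at 25.1, 47.5 and 155 CPM in AnnexinV-positive libraries and at 0, 5.63 and 146 CPM in double-negative libraries. A single double-negative library, number 5, was near the AnnexinV-positive maximum, 2 others were at 0, and the log2 fold change was 0.96 (SE 0.87, adjusted p = 0.649 in edgeR). For its partner Brca1 the value was -0.04 (SE 0.83, adjusted p = 0.991 in edgeR). The mismatch sensor Msh6 had 0.37 (SE 0.58, adjusted p = 0.799 in edgeR). Fancd2, of crosslink repair, was below the filter, at 0, 26.0 and 48.9 CPM in AnnexinV-positive libraries and 0, 0 and 14.2 CPM in double-negative libraries, where 5 of 6 libraries had no count.

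The checkpoint kinases had values of both signs. Atr, which responds to stalled forks, was at 7.75, 40.9 and 70.2 CPM in AnnexinV-positive libraries and at 0, 55.2 and 147 CPM in double-negative libraries. Its 3 highest values were in double-negative libraries 1 to 3 and its 1 zero in double-negative library 4, and the log2 fold change was -0.61 (SE 0.75, adjusted p = 0.744 in edgeR). Its target kinase Chek1 had 0.14 (SE 0.69, adjusted p = 0.947 in edgeR). Atm, which responds to double-strand breaks, was below the filter, at 5.74, 21.2 and 79.4 CPM in AnnexinV-positive libraries and 0, 12.5 and 71.0 CPM in double-negative libraries. Chek2, the target of Atm, was at 0, 17.5 and 63.1 CPM in AnnexinV-positive libraries, and in double-negative libraries it had counts in number 6 alone (53.9 CPM).

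The end-joining and single-strand break genes below the filter had few counts. Xrcc5, which encodes a Ku subunit, was at 0, 17.6 and 89.2 CPM in AnnexinV-positive libraries and at 0, 0 and 59.9 CPM in double-negative libraries, and the other Ku gene Xrcc6 had 29 counts in the AnnexinV-positive group and 16 in the double-negative group. Mdc1, the scaffold that binds marked chromatin at breaks, was at 9.46, 20.6 and 57.4 CPM in AnnexinV-positive libraries and at 0, 7.597 and 50.3 CPM in double-negative libraries. Xrcc1, the scaffold of single-strand break repair, was at 3.58, 14.3 and 24.4 CPM in AnnexinV-positive libraries and at 0, 8.99 and 50.3 CPM in double-negative libraries. The groups overlapped for all 4 genes.

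The libraries fall into numbers 1 to 3 and 4 to 6 by their order in the deposited columns, each set with 3 libraries of both groups, and the replication median was farther from 0 in the first set. The median log2 fold change of the tested replication factors was 1.28 in libraries 1 to 3 (19 of 23 positive) and 0.36 in libraries 4 to 6 (16 of 23 positive). That of the tested repair and checkpoint genes was 0.17 and 0.36 (4 and 5 of 7 positive), and that of all tested genes 0.05 and 0.04. Mcm3 had 4.22 in the first set and 0.93 in the second, Uhrf1 2.59 and 0.36, Mcm4 2.36 and 0.31, and Mcm6 2.31 and 0.27, whereas Mcm2 was nearly equal at 1.75 and 1.60. Atr had opposite signs, -2.35 in the first set and 1.30 in the second.

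A test of that difference found no member. The interaction of sort group with set passed for 0.0789% of the tested genes (3 of 3800 in edgeR: Fth1, Gpx1 and Robo2, listed because they are all that passed). Of the 30 tested members 0 passed, and the lowest adjusted interaction p was 0.722 in edgeR. Without adjustment, 6 of the 30 members had an interaction p under 0.05 in edgeR, where 6.29% of all tested genes had one: Atr, Mcm3, Uhrf1, Slbp, Mcm4 and Mcm6. The haemoglobin counts lie in the double-negative libraries of the first set, whose replication sums were the lowest. The mitosis markers ran the other way, with a median of 0.72 in the first set and 2.52 in the second, and the neuron markers were alike, at -2.31 and -2.32. What part haemoglobin, depth and cell makeup had in this contrast of the sets was not tested.

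**Figure D5:**
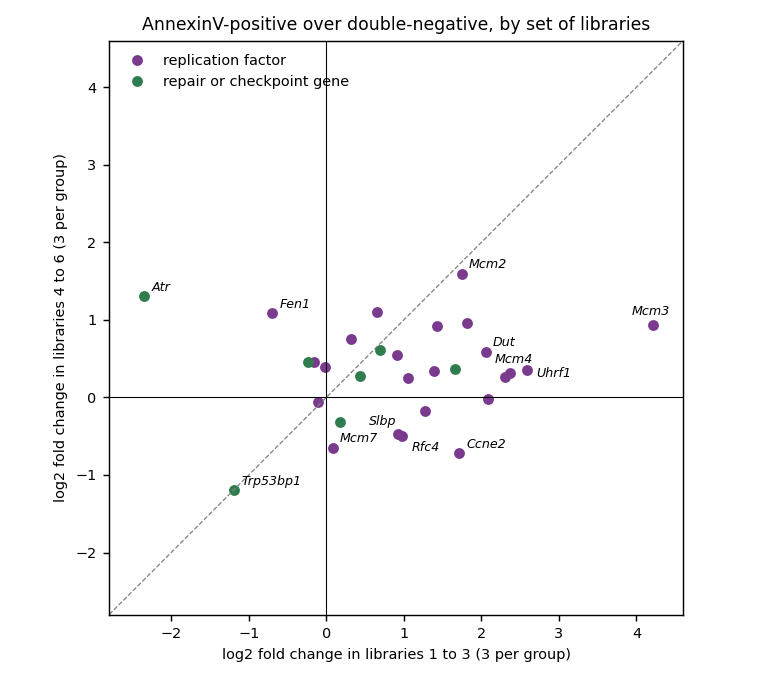
Log2 fold change (AnnexinV-positive over double-negative) of each tested member in libraries 1 to 3 (horizontal axis) and in libraries 4 to 6 (vertical axis), 3 libraries per group in each set; the dashed line marks equal values. Mcm3 (4.22 and 0.93), Uhrf1 (2.59 and 0.36) and other replication factors lie right of the line, Mcm2 and Trp53bp1 lie near it, and Atr (-2.35 and 1.30) lies far to its left.

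Further genes of the same pathways, from lists also chosen with earlier results known, were read from the same fit. Of 64 further replication genes 27 were tested, and 0 passed in either direction in edgeR (2 higher and 0 lower at an unadjusted p under 0.05), with 23 positive values and a median of 0.44; DESeq2 called 0 as well. Cdk2, the kinase partner of the E-type cyclins, had 1.79 (SE 0.82, adjusted p = 0.289 in edgeR), and Cdca7, a chromatin factor active in S phase, 1.43 (SE 0.62, adjusted p = 0.251 in edgeR). E2f3, an E2F factor, had 1.41 (SE 0.73, adjusted p = 0.350 in edgeR) and Top2b, a topoisomerase found also in non-dividing cells, -0.57 (SE 0.29, adjusted p = 0.344 in edgeR). The median of this list was 0.999 in libraries 1 to 3 and -0.0012 in libraries 4 to 6. Top2a, the topoisomerase of dividing cells and chosen after its values were seen, had -0.50 in the first set and 3.99 in the second. The adjusted p of this difference was 0.314 in edgeR, and without double-negative libraries 1 to 3 Top2a passed as higher.

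Of 83 further repair and checkpoint genes 15 were tested, and 0 passed in either direction in edgeR (2 higher and 0 lower at an unadjusted p under 0.05). Here 7 values were positive and 8 negative, with a median of -0.02. Usp1, which removes ubiquitin from Fancd2 and Pcna, was at 7.16, 146 and 229 CPM in AnnexinV-positive libraries and at 0, 30.7 and 63.9 CPM in double-negative libraries, and had the largest value of this list, 2.01 (SE 0.66, adjusted p = 0.114 in edgeR); it passed in DESeq2 and in edgeR without a filter. H2ax, the histone that is phosphorylated around breaks, was at 179, 315 and 385 CPM in AnnexinV-positive libraries and at 32.4, 78.4 and 308 CPM in double-negative libraries, with 1.12 (SE 0.44, adjusted p = 0.191 in edgeR); it passed without double-negative libraries 1 to 3. Both overlapped between the groups. Polb, the polymerase of base excision repair, had -1.27 (SE 0.75, adjusted p = 0.430 in edgeR) and Aptx, which cleans blocked 5′ ends, -1.41 (SE 0.87, adjusted p = 0.453 in edgeR).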

How the data were processed

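The deposited table named raw count holds estimated counts: 8.84% of its nonzero values were not whole (tolerance 1e-06), so values were rounded before testing, where whole counts had been assumed. In the second deposited table, called TPM by the authors, library sums ran from 764764 to 1835685, so its values were treated as a score and used in 1 alternative (log2 of value plus 1). The tools Trimmomatic, STAR, featureCounts and Seurat 4 and the builds GRCm38 and mm10 are listed, per the submitters' processing notes, with no role named. The annotation, the strand setting and what gave fractions: not given in the sources used here. Exons of 20 of the 50 members overlap another gene, and their reads may be shared.

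Gene positions and exon lengths come from GENCODE M21. Testing used the quasi-likelihood method of edgeR 4.0.16 under R 4.3.3 (TMM, filterByExpr with minimum count 10 and minimum total 15, robust, two-sided, Benjamini-Hochberg over 3800 genes, threshold 0.05); limma 3.58.1 and DESeq2 1.42.0 served for alternatives. The script was tested on simulated data. A log2 fold change is the AnnexinV-positive over the double-negative level, with its SE as the fold change over the square root of F; CPM are per 1000000 counts of the genes past the filter, scaled with TMM factors (prior count 2 for log2 CPM). Fits on subsets used the genes of the main filter. No library was a repeat of another (chi-square per degree of freedom 4.50 to 21.1), and replicate numbers did not pair libraries across groups (correlations -0.007 to 0.078).

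The members and lists were chosen with earlier results of these data known, so no list-wide test or p is given. Lowest, median and highest levels were given for members past the threshold and for the 8 replication and 4 repair members with the smallest p. Those of Slbp were given outside this rule. Levels were also given for up to 2 members per role below the filter with the most counts. From each further list, genes past the threshold and up to 4 with the smallest p were named by log2 fold change, with levels for Usp1 and H2ax.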

Additional observations from a re-analysis of the deposited data

Results flagged for a closer look

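Groups of 6 libraries were checked for the tested members, on the log2 CPM scale, and for the replication and repair sums, on the CPM scale. In 7 of 64 groups, all of them members, 1 library stood apart from the other 5. Its gap, divided by the group's range, was above the critical value of Dixon's test. For normally distributed values chance alone gives about 1 in 20. In each case the library set apart was the lowest. In AnnexinV-positive library 1, Mcm2 was at 5.60 (the others 6.50 to 6.87) and Mcm4 at 5.76 (the others 7.71 to 8.34), and in AnnexinV-positive library 3 Chek1 was at 3.94 (the others 6.05 to 6.59). In double-negative library 3, the shallowest, Rrm1 was at 4.56 (the others 7.11 to 8.08) and Tyms at 3.03 with no count (the others 5.85 to 7.34). In double-negative library 2 Lig1 was at 3.03 with no count (the others 5.02 to 5.96), and in double-negative library 5 Gins2 was at 4.61 (the others 6.30 to 7.01).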

How the results depend on the processing

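Over 25 alternatives, 0 members passed except Trp53bp1 in DESeq2 (1 lower) and Dut without double-negative library 6 (1 higher; 0 to 1 higher over leave-one-out fits, 0 lower). Of all tested genes, 15 were higher and 56 lower; the counts were 42 and 55 with upper-quartile scaling, 74 and 127 with DESeq2, 101 and 136 without a filter, 41 higher with a minimum count of 3, 15 lower in the second table, 28 higher with the set as a term, 37 lower in libraries 1 to 3, 3 and 18 in libraries 4 to 6, 24 lower without double-negative libraries 1 to 3, 1 and 12 without double-negative libraries 3 and 5, and 7 to 41 higher (39 to 76 lower) without 1 library. The replicate block gave 19 higher and 52 lower, with 0 members, medians of 0.90 for replication and 0.64 for repair; the numbers share no pairing, and numbers 3 and 4 alone matched best. Class medians ranged over 0.23 to 1.49 for replication and -0.29 to 0.64 for repair. The median of all genes shifted to 0.14 with upper-quartile scaling, 0.22 without a filter, 0.18 with the replicate block and 0.42 in the second table. Uhrf1 reversed to -0.0563 without double-negative libraries 1 to 3; of the 15 members within 1 SE of 0, 62 of 375 values had the other sign. Low counts in double-negative libraries limit all values, and 20 members could not be tested; the causes were not tested.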
